A study of Mus musculus with 6 samples.

Results

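RNA of 10 genes of the BCL2 family, which decides whether a cell keeps its mitochondria intact or dies by apoptosis, was measured in lipid-laden (foamy) and lipid-poor (non-foamy) macrophages of the mouse aortic intima. The 10 genes were taken by symbol from 41388 Ensembl gene IDs counted in every library. They are the survival genes Bcl2, Bcl2l1, Mcl1, Bcl2a1b and Bcl2a1d, the pore-forming death genes Bax and Bak1, and the BH3-only death genes Bid, Bcl2l11 and Pmaip1. Foamy macrophages were live cells that stained for CD64 and CD11b and were high in BODIPY493/503, a dye of neutral lipid, and in side scatter. Non-foamy macrophages carried the same surface markers and were low in dye and scatter. Both populations came from ApoE-/- mice of the C57BL/6 strain, which develop atherosclerotic plaques, after 28 weeks of Western diet. The design gives 6 mice, and each population was sequenced as 3 libraries. All libraries therefore come from mutant, diet-fed mice, and no healthy or wild-type group was analysed here. The labels used here give neither age nor sex. Cells that took up propidium iodide, a dye that enters dead cells, were gated out of both populations. Which of the 6 mice went into which library is not recorded in the labels. The p-values therefore cover the spread between these libraries only, and that spread may be technical.

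Total counts in genes ran from 18592421 to 24279802 in foamy libraries and from 15628627 to 24619075 in non-foamy libraries. Mitochondrial genes took 1.43% to 2.05% of counts in foamy libraries and 1.43% to 2.29% in non-foamy libraries. No library was a copy of another: counts of libraries of 1 group gave a chi-square of 50.7 to 143 per degree of freedom, where sampling noise alone gives about 1. Non-foamy replicate 1 had the lowest total and the most genes with a count, 24701, against 15595 to 20538 in the other 5 libraries. A list of 10 macrophage markers, of which Cd68 and C1qb had the highest levels, summed to 22200, 23000 and 28400 CPM in foamy libraries and 13300, 17700 and 22000 CPM in non-foamy libraries, low to high. All 10 were tested with edgeR: 2 were called higher in foamy libraries (Cd68 and Mertk) and 3 lower (Csf1r, Adgre1 and Itgam, the gene of CD11b). Of all genes tested, 2.50% were called higher and 2.90% lower. CPM here are counts scaled to a common library total after TMM, which adjusts each library for its composition.

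The family works by binding. BCL-2, BCL-XL (from Bcl2l1), MCL-1 and A1 (from the Bcl2a1 genes) hold BAX and BAK in check, and BH3-only proteins such as BID, BIM (from Bcl2l11) and NOXA (from Pmaip1) bind the survival proteins or activate BAX and BAK. Once BAX or BAK opens the outer mitochondrial membrane, cytochrome c leaves and caspases are activated. NOXA mainly binds MCL-1 and A1. In macrophages MCL-1 and A1 are known survival proteins, and A1 is a known target of NF-kB.

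Among the 10 members, 2 fell in foamy macrophages and none rose. Pmaip1, encoding the death protein NOXA, was 5.22-fold lower, and Bcl2a1d, encoding a copy of the survival protein A1, was 3.11-fold lower. The Bcl2a1d call did not hold without foamy replicate 2 or 3, against a 1.5-fold change, or with the A1 copies summed. The other 8, among them Mcl1, Bcl2l1 and Bax, did not pass the test. At an unadjusted edgeR p under 0.05 there was still no member that was higher and 3 that were lower, and DESeq2 and limma-voom each called 0 higher and 2 lower. All 10 members had enough counts to be tested. The test was edgeR's quasi-likelihood F-test with Benjamini-Hochberg adjustment over 11303 genes and a threshold of 0.05. Of all genes tested, 5.41% passed, 2.50% as higher and 2.90% as lower in foamy libraries. Fold changes are foamy over non-foamy. Their median on the log2 scale was -0.11 over the members and -0.04 over all genes tested. Groups did not overlap for 3 members, all lower in foamy libraries (Pmaip1, Bcl2a1d and Bcl2). Over all genes tested 25.7% had groups that do not overlap, 13.3% with foamy libraries lower. These are bulk samples, so fewer cells of a type and less RNA per cell cannot be told apart.

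**Figure D1:**
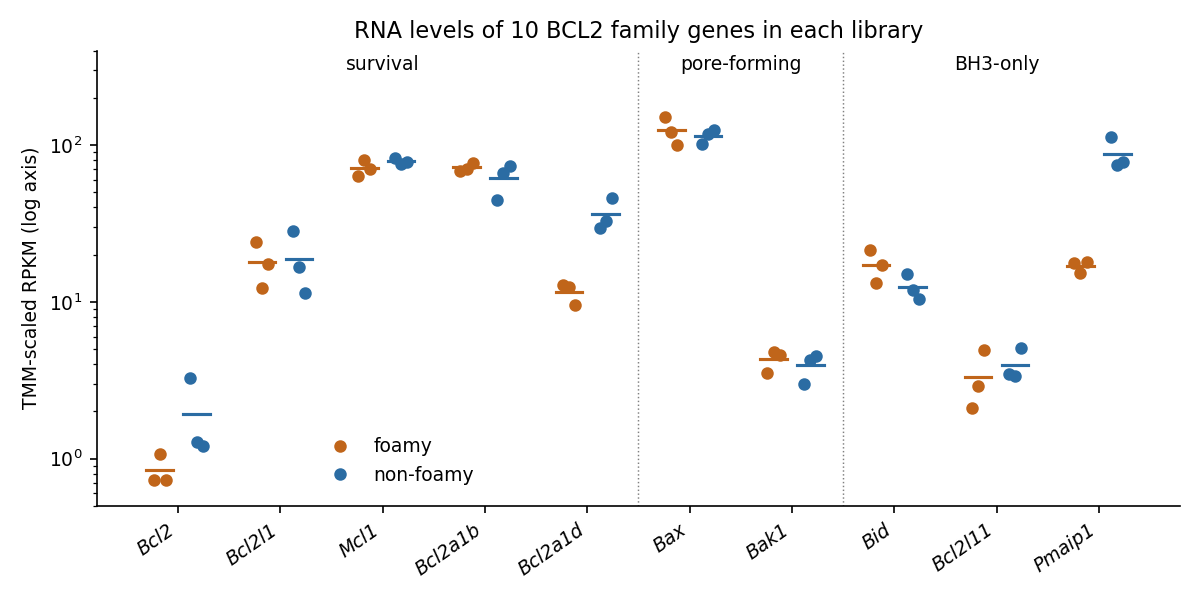
RNA level of each of the 10 members, as TMM-scaled RPKM on a log axis; points are single libraries (3 foamy, orange, left; 3 non-foamy, blue, right) and bars are group means. The foamy points of Pmaip1 and Bcl2a1d lie below all non-foamy points, with means of 16.9 against 88.3 and of 11.6 against 36.2 RPKM.

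Pmaip1 had the largest change in size of the 10 members. It lies at chr18:66458604-66465550 on the plus strand (ENSMUSG00000024521). All 10 members are protein-coding in GENCODE M21, and gene coordinates are those of the deposited tables, on GRCm38. Its level was 46.8, 40.2 and 47.3 CPM in foamy replicates 1 to 3, against 297, 198 and 206 CPM in non-foamy replicates 1 to 3. The highest foamy library was thus far below the lowest non-foamy one, and the foamy libraries lay close together. The mean was 44.7 ± 3.94 CPM in foamy libraries, against 234 ± 54.9 CPM in non-foamy ones (SD, n = 3 each). The log2 fold change was -2.38 (SE 0.22, edgeR adjusted p = 0.00013). Pmaip1 stayed past the threshold in all 16 alternative analyses, with log2 fold changes between -2.67 and -2.18.

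The other BH3-only members did not move with Pmaip1 past the test. Bid (chr6:120891930-120916853, minus strand) encodes a protein that caspase-8 cleaves to link death receptors to mitochondria. Bid stood at 76.3, 46.9 and 61.1 CPM in foamy libraries and 53.4, 42.1 and 37.0 CPM in non-foamy libraries, and the groups overlapped. Its log2 fold change of 0.48 had a 95% interval of -0.03 to 0.98 (SE 0.26, edgeR adjusted p = 0.37). Bcl2l11 (chr2:128126038-128162547, plus strand) encodes BIM, which binds all the main survival proteins. Its level was 16.8, 23.3 and 39.8 CPM in foamy libraries and 27.9, 26.9 and 40.6 CPM in non-foamy libraries, with overlap. The log2 fold change was -0.26, with an interval of -0.94 to 0.42 (SE 0.35, edgeR adjusted p = 0.77). The interval holds changes in both directions, so no difference in Bcl2l11 was detectable with these libraries.

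Bax and Bak1, whose products form the pores, did not pass the test. Bax (chr7:45461695-45466898, minus strand) was at 131, 105 and 86.9 CPM in foamy libraries and 87.9, 102 and 108 CPM in non-foamy libraries. The groups overlapped, and the log2 fold change was 0.12 (95% interval -0.30 to 0.53, SE 0.21, edgeR adjusted p = 0.85). Bak1 (chr17:27019810-27029009, minus strand) was at 8.48, 11.5 and 11.0 CPM in foamy libraries and 7.24, 10.2 and 10.9 CPM in non-foamy libraries. These groups overlapped too, with a log2 fold change of 0.13 and a wider interval of -0.66 to 0.92 (SE 0.40, edgeR adjusted p = 0.92).

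Of the survival genes, Mcl1 had the narrowest interval. MCL-1 is a short-lived protein on which many myeloid cells depend. Mcl1 (chr3:95658721-95663176, plus strand) stood at 221, 280 and 244 CPM in foamy libraries and 290, 265 and 274 CPM in non-foamy libraries. The groups overlapped, and the log2 fold change was -0.15 (95% interval -0.49 to 0.18, SE 0.17, edgeR adjusted p = 0.72). Bcl2l1 (chr2:152780668-152831728, minus strand), which encodes BCL-XL, varied within both groups, at 111, 56.1 and 80.4 CPM in foamy libraries and 130, 77.1 and 52.2 CPM in non-foamy libraries. Its log2 fold change was -0.07 (95% interval -0.74 to 0.60, SE 0.34, edgeR adjusted p = 0.95).

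Bcl2 itself (chr1:106538178-106714274, minus strand) had the lowest mean of the 10 per length of transcript (RPKM) in both populations. Its level was 6.73, 9.79 and 6.67 CPM in foamy libraries and 29.8, 11.7 and 11.1 CPM in non-foamy libraries. All foamy libraries were below all non-foamy ones, but non-foamy replicate 1 stood far above the other non-foamy libraries. The log2 fold change of -1.18 did not pass (SE 0.47, edgeR unadjusted p = 0.028 and adjusted p = 0.19). Without non-foamy replicate 1 it was -0.56. In that library Ms4a1, a B cell marker, and Flt3 and Ccr7, dendritic cell markers, were also highest. Ms4a1 was at 7.57 CPM against at most 0.379 CPM elsewhere, Flt3 at 5.08 against at most 0.222 CPM, and Ccr7 at 11.4 against at most 2.91 CPM. These 3 genes were picked after their values were seen, and their part in the Bcl2 value was not tested.

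The mouse has several A1 genes of very similar sequence on chromosome 9, and each deposited table lists 4. Bcl2a1d lies at chr9:88723285-88731914 (minus strand, ENSMUSG00000099974), Bcl2a1a at chr9:88956900-88962419 (plus strand, ENSMUSG00000102037) and Bcl2a1b at chr9:89199209-89207827 (plus strand, ENSMUSG00000089929). Bcl2a1c, a shorter gene, lies farther along at chr9:114330135-114330578 (plus strand). All 4 are protein-coding in GENCODE M21. The coding sequences of the first 3 are 516 bases long and differ at 7 bases between Bcl2a1a and Bcl2a1d, 6 between Bcl2a1b and Bcl2a1d, and 11 between Bcl2a1a and Bcl2a1b. The first 120 coding bases, shown here because 5 of the 7, 3 of the 6 and 6 of the 11 differences just given fall in them, are written from the start codon in the direction of the gene (GENCODE M21 transcripts, GRCm38). Capitals mark the 7 positions at which the 3 copies are not all alike. The stretches lie at chr9:88731600-88731719 (minus strand), chr9:88957051-88957170 (plus strand) and chr9:89199360-89199479 (plus strand).
Bcl2a1d: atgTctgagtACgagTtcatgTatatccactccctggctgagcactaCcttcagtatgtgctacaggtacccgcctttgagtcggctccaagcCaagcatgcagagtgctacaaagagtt
Bcl2a1a: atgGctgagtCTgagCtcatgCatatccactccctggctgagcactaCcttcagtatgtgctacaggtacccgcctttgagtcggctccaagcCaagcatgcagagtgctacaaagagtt
Bcl2a1b: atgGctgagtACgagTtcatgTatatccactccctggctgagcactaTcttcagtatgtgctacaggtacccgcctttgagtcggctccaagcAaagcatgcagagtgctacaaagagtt

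Reads of these libraries were 50 bases long, and a read tells the copies apart only where it covers such a difference. Of all 50-base windows in the annotated transcripts, 20.5% of 814 in Bcl2a1d and 31.0% of 770 in Bcl2a1a occur in no other gene. For Bcl2a1b 42.4% of 768 windows occur in no other Bcl2a1 copy, and 20.8% in no other gene; Gm29094 on the same strand covers 401 of its 817 exon bases. Gm29094 had 0 counts in all 6 libraries, so no read in the shared bases was counted for it. It is not known whether such reads were counted for Bcl2a1b, whose level may be understated. By the same measure all windows of Pmaip1, Mcl1 and Bcl2l1 were their own. Whether reads that match several copies were counted is not stated in the labels or processing notes, which leaves the level of each copy uncertain.

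With that limit, Bcl2a1d and Bcl2a1a fell in foamy macrophages and Bcl2a1b did not pass the test. Bcl2a1d was at 11.1, 10.8 and 8.18 CPM in foamy libraries, against 25.6, 28.4 and 39.8 CPM in non-foamy libraries. Every foamy library was below every non-foamy one, with means of 10.0 ± 1.61 CPM in foamy libraries and 31.2 ± 7.51 CPM in non-foamy ones (SD, n = 3 each). The log2 fold change was -1.64 (SE 0.32, edgeR adjusted p = 0.013). The call did not hold when foamy replicate 2 was left out (log2 fold change -1.68), when foamy replicate 3 was left out (-1.5), or against a 1.5-fold change. Bcl2a1a was at 5.45, 7.12 and 7.48 CPM in foamy libraries and 19.2, 25.4 and 39.9 CPM in non-foamy libraries. These groups did not overlap either, and the log2 fold change was -2.08 (SE 0.37, edgeR adjusted p = 0.0083), past the threshold in all 15 alternatives that kept it apart. Bcl2a1b was at 56.1, 57.9 and 62.7 CPM in foamy libraries and 36.7, 54.4 and 60.5 CPM in non-foamy libraries. Its groups overlapped, and its log2 fold change was 0.22 (95% interval -0.26 to 0.70, SE 0.24, edgeR adjusted p = 0.72). Bcl2a1c was at 1.56 to 2.27 CPM in foamy libraries, against 2.36 to 2.76 CPM in non-foamy ones, a difference that missed the threshold (log2 fold change -0.41, edgeR adjusted p = 0.85).

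The make-up of the A1 reads therefore differed between the populations. Bcl2a1b took 74.8%, 74.8% and 77.9% of the counts of the 4 copies in foamy libraries and 43.5%, 49.2% and 42.3% in non-foamy libraries. Bcl2a1d took 14.9%, 13.9% and 10.2% in foamy and 30.4%, 25.7% and 27.8% in non-foamy libraries. Bcl2a1a took 7.27%, 9.20% and 9.30% in foamy and 22.8%, 23.0% and 27.9% in non-foamy libraries. For each of these 3 copies the groups lay apart. Library size and scaling cancel in such a share, but the counting of shared reads does not. The shares were chosen after the copies' values were seen and were given no test. Summed over the 4 copies the level was 74.9, 77.4 and 80.5 CPM in foamy libraries, against 84.2, 111 and 143 CPM in non-foamy ones. In a fit with the copies summed, the log2 fold change was -0.54 and did not pass the threshold.

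**Figure D2:**
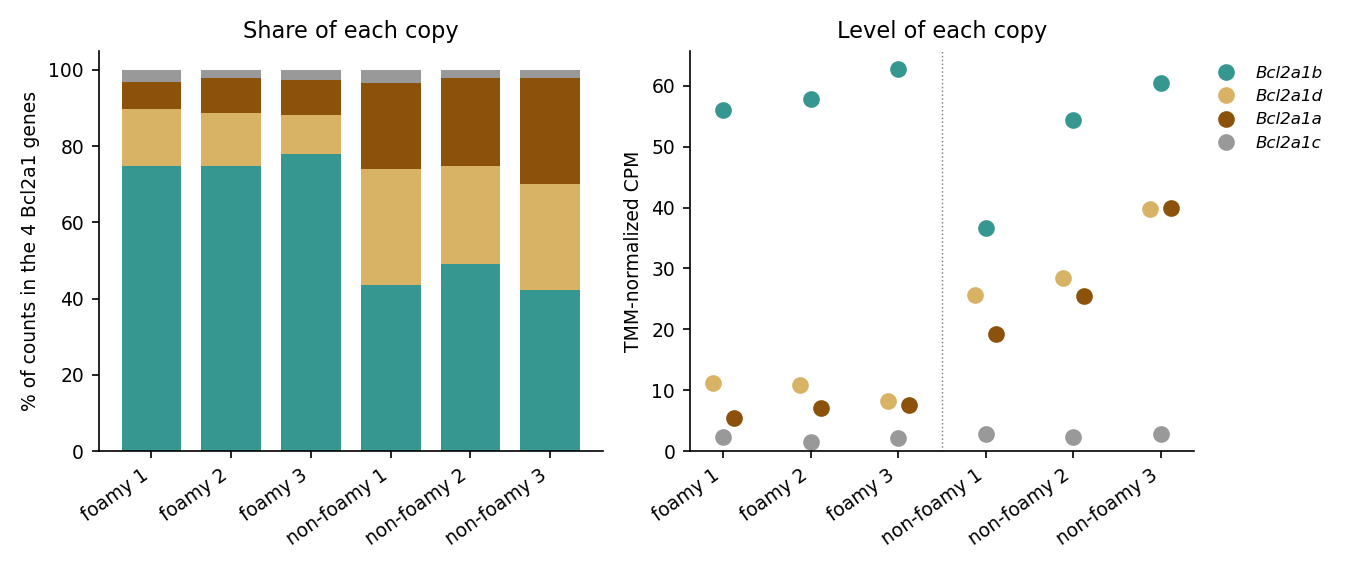
The 4 Bcl2a1 genes in each library, foamy libraries left of non-foamy ones: left panel, percent of their counts that fall in each copy; right panel, TMM-normalized CPM of each copy. Bcl2a1b takes 74.8% to 77.9% of the counts in foamy and 42.3% to 49.2% in non-foamy libraries, while its own level overlaps between the groups.

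The copies resemble each other upstream as well. Stretches upstream of these copies are shown (RefSeq promoter windows, GRCm38.p6, in the direction of the gene). They were chosen because copies with called and uncalled changes share them. Each ends where the sequence matching the annotated start of Bcl2a1d begins. That is directly before the annotated start of Bcl2a1d, but some bases short of those of Bcl2a1a (88956900) and Bcl2a1b (89199209). Capitals mark GAGGAA, a core sequence of sites bound by PU.1, a macrophage transcription factor. The stretches lie at chr9:88731915-88732050 (minus strand), chr9:88956714-88956855 (plus strand) and chr9:89199023-89199164 (plus strand).
Bcl2a1d: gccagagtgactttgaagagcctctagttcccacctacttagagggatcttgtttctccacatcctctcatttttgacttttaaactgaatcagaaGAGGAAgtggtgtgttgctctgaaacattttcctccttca
Bcl2a1a: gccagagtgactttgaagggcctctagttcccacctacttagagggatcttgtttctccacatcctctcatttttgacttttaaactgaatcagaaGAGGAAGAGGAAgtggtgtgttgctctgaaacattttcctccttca
Bcl2a1b: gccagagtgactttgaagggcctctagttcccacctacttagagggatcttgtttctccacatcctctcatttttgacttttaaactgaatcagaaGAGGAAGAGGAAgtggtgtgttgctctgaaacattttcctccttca

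The 142 bases of Bcl2a1a and Bcl2a1b were identical, while Bcl2a1a fell and Bcl2a1b did not pass the test. The stretch of Bcl2a1d differed from both by 1 substitution and by 6 bases that it lacks, which are 1 of the GAGGAA repeats. GAGGAA occurred 2 times in Bcl2a1a and Bcl2a1b and 1 time in Bcl2a1d on the strand of the gene, and 1 time on the other strand in each. On either strand it occurred in 13.7% of the 142-base stretches before the start of 32851 RefSeq promoters. Those were cut directly before each start, so their place can differ from that of the stretches shown. A match of this kind is a description and does not show binding.

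Levels were compared between genes per length of transcript, as TMM-scaled RPKM (CPM per kilobase of transcript). The places of Bcl2a1b and Bcl2a1d are uncertain, since 20.8% and 20.5% of their 50-base windows occur in no other gene, against 91.5% for Bax. If reads that match several genes were not counted, division by full length understates these copies, and the order could differ. By the deposited counts Bax was the highest member in both populations, at 124 ± 25.5 RPKM in foamy and 114 ± 11.8 RPKM in non-foamy libraries (SD, n = 3 each). In foamy libraries it was followed by Bcl2a1b (72.1 ± 4.19) and Mcl1 (71.3 ± 8.59), then Bcl2l1 (18 ± 5.98), Bid (17.3 ± 4.15) and Pmaip1 (16.9 ± 1.49), then Bcl2a1d (11.6 ± 1.87), Bak1 (4.29 ± 0.673), Bcl2l11 (3.31 ± 1.48) and Bcl2 (0.844 ± 0.195). Judged by the range of the 3 libraries, neighbours that overlapped there were Bcl2a1b and Mcl1, Bcl2l1 and Bid, Bid and Pmaip1, and Bak1 and Bcl2l11. In non-foamy libraries Pmaip1 (88.3 ± 20.7) stood second, beside Mcl1 (79.3 ± 3.70), ahead of Bcl2a1b (61.8 ± 15.2), Bcl2a1d (36.2 ± 8.70), Bcl2l1 (18.9 ± 8.72) and Bid (12.4 ± 2.37), with Bcl2l11 (3.96 ± 0.948), Bak1 (3.93 ± 0.805) and Bcl2 (1.92 ± 1.16) last. By the same range, neighbours that overlapped in non-foamy libraries were Bax and Pmaip1, Pmaip1 and Mcl1, Bcl2a1b and Bcl2a1d, Bcl2l1 and Bid, Bcl2l11 and Bak1, and Bak1 and Bcl2.

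Pmaip1 thus changed its place among the members more than any other gene. It made up 4.84%, 4.55% and 5.6% of the members' summed RPKM in foamy libraries and 26.4%, 18.4% and 18% in non-foamy libraries. Against Mcl1, whose product NOXA binds, its RPKM ratio was 0.279, 0.189 and 0.255 in foamy libraries and 1.35, 0.983 and 0.993 in non-foamy libraries. The 5 survival members summed to 170, 177 and 174 RPKM in foamy and 190, 194 and 211 RPKM in non-foamy libraries. The 5 death members summed to 196, 157 and 145 RPKM in foamy and 235, 212 and 222 RPKM in non-foamy libraries. Death over survival RNA was 1.15, 0.885 and 0.829 in foamy libraries and 1.24, 1.09 and 1.05 in non-foamy libraries, and the groups overlapped. With Pmaip1 left out of the sum the ratio was 1.05, 0.799 and 0.727 in foamy libraries and 0.647, 0.709 and 0.681 in non-foamy libraries, where every foamy library was the higher. These sums and ratios are descriptions of RNA, chosen with the members' values known, and are not a measure of protein. Only the ratio of Pmaip1 to Mcl1 was tested. Its exact permutation p was 0.1, the smallest that 3 against 3 libraries can give, so that test could not reach 0.05. Sums and ratios that include Bcl2a1b or Bcl2a1d also carry the uncertainty in the counts of these copies.

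**Figure D3:**
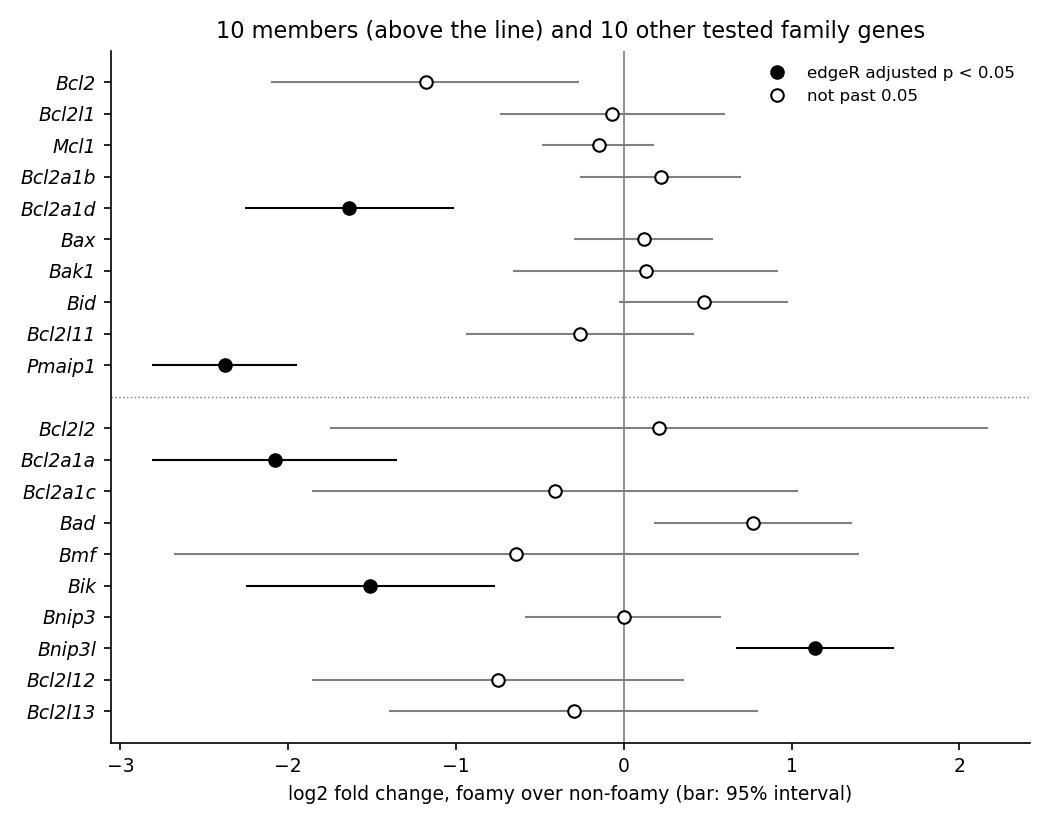
Log2 fold change, foamy over non-foamy, with its 95% interval, for the 10 members (above the dotted line) and 10 other tested BCL2 family genes (below it); filled points pass edgeR's adjusted p of 0.05. Among the members only Pmaip1 (-2.38) and Bcl2a1d (-1.64) are filled, and below the line Bcl2a1a (-2.08), Bik (-1.51) and Bnip3l (1.14).

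A further 16 genes of the family were looked at. Of these, 15 had a count and 10 were tested. In foamy macrophages 1 rose (Bnip3l) and 2 fell (Bcl2a1a and Bik), against 2.50% and 2.90% of all genes tested. The median log2 fold change of the 10 tested was -0.35. Bnip3l encodes NIX, a BH3-like protein that marks mitochondria for removal by autophagy. It stood at 129, 161 and 142 CPM in foamy libraries, all above the 63.3, 85.3 and 47.6 CPM of non-foamy libraries. Its log2 fold change was 1.14 (SE 0.24, edgeR adjusted p = 0.018), a call that did not hold when foamy replicate 2 (1.07) or foamy replicate 3 (1.16) was left out, against a 1.5-fold change and with scaling to total counts only (0.88). Its relative Bnip3 did not pass, with a log2 fold change of -0.00 (SE 0.30, edgeR adjusted p = 1). Bik, a BH3-only gene, was at 13.4, 11.4 and 5.54 CPM in foamy libraries and 24.9, 34.8 and 27.1 CPM in non-foamy libraries, without overlap. Its log2 fold change was -1.51 (SE 0.38, edgeR adjusted p = 0.041). The Bik call was lost when any 1 of the 6 libraries was left out (log2 fold changes -1.76 to -1.21).

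Bad, whose BH3-only product is held inactive by phosphorylation, was at 112, 57.0 and 58.1 CPM in foamy libraries and 34.2, 46.9 and 52.2 CPM in non-foamy libraries. Foamy replicate 1 was far above the other libraries, the groups lay apart, and the log2 fold change of 0.77 did not pass (SE 0.30, edgeR adjusted p = 0.19). Without foamy replicate 1 it was 0.38. Bcl2l2, which encodes the survival protein BCL-w, had a log2 fold change of 0.21 (SE 1.00), and Bmf, a BH3-only gene, one of -0.64 (SE 1.04), and neither passed. Bcl2l12 (-0.75, SE 0.57) and Bcl2l13 (-0.30, SE 0.56) did not pass either. Bbc3, which encodes the BH3-only protein PUMA and like Pmaip1 is a known p53 target, was too low to be tested. It was at 0.237, 0.0556 and 0.377 CPM in foamy libraries and 0.270, 0.165 and 1.85 CPM in non-foamy libraries. Hrk, Bok, Bcl2l14 and Bcl2l10 reached at most 0.649 CPM in any library, and Bcl2l15 had no count.

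Genes around the family in the death pathway were read from 6 lists of 77 genes in all, of which 74 were tested. With edgeR none of the 74 rose and 8 fell in foamy libraries, against 2.50% higher and 2.90% lower of all genes tested. The median log2 fold change of the 74 was -0.15. At an unadjusted p under 0.05, 2 were higher (Mlkl and Mtch2) and 14 lower; DESeq2 called 1 higher (Mlkl) and 9 lower, limma-voom 0 and 8. The 11 tested genes of the apoptosome and the caspases held no call with edgeR, DESeq2 or limma-voom (median -0.01). Casp6, an effector caspase and the 1 gene of that list with an unadjusted p under 0.05, had a log2 fold change of -0.60 (edgeR adjusted p = 0.26). The 9 tested mitochondrial partners, not all of them in the outer membrane, held no call with these tools either (median 0.08). Mtch2, a membrane receptor for BID, was the 1 gene of that list with an unadjusted edgeR p under 0.05. Its log2 fold change was 0.47 (SE 0.18, edgeR adjusted p = 0.19).

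Among 9 tested caspase inhibitors and their antagonists, Birc3 and Birc2 fell (median of the list -0.26). They encode the ubiquitin ligases cIAP2 and cIAP1, which restrain cell death downstream of TNF receptors. Birc3 had a mean of 18.1 ± 4.67 CPM in foamy libraries against 57.9 ± 16.3 CPM in non-foamy ones (SD, n = 3 each, as for the means that follow), a log2 fold change of -1.68 (SE 0.31, edgeR adjusted p = 0.0095). Birc2 had a mean of 5.70 ± 1.71 CPM in foamy libraries against 20.8 ± 4.68 CPM in non-foamy ones, a log2 fold change of -1.86 (SE 0.39, edgeR adjusted p = 0.019). Birc2 did not pass when foamy replicate 1 (-1.70), foamy replicate 2 (-1.78) or the third non-foamy library (-1.65) was left out, or against a 1.5-fold change.

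In the death receptor list 2 of 12 tested genes fell (median -0.27), and they act in opposite ways. Tnf, the ligand, had a mean of 45.7 ± 13.4 CPM in foamy libraries against 225 ± 24.4 CPM in non-foamy ones, a log2 fold change of -2.30 (SE 0.24, edgeR adjusted p = 0.0003). Cflar encodes FLIP, which blocks caspase-8. It had a mean of 36.7 ± 9.86 CPM in foamy libraries against 78.1 ± 10.3 CPM in non-foamy ones, a log2 fold change of -1.09 (SE 0.26, edgeR adjusted p = 0.033). The Cflar call was lost when any 1 of the 6 libraries was left out (-1.26 to -0.88). Among 13 genes that control the turnover or activity of family proteins, Pim1 fell (median of the list -0.06). Its kinase phosphorylates BAD. Pim1 had a mean of 278 ± 23.8 CPM in foamy libraries against 807 ± 209 CPM in non-foamy ones, a log2 fold change of -1.53 (SE 0.21, edgeR adjusted p = 0.0016).

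The list of transcription factors upstream of the family, with their targets, held 20 tested genes, of which 3 fell (median -0.42). Rel encodes c-Rel, the NF-kB subunit known to activate A1. It had a mean of 12.1 ± 3.93 CPM in foamy libraries against 67.2 ± 31.0 CPM in non-foamy ones, a log2 fold change of -2.47 (SE 0.39, edgeR adjusted p = 0.0040). Cdkn1a, the cell cycle inhibitor p21 and, like Pmaip1, a known p53 target, had a mean of 95.7 ± 24.6 CPM in foamy libraries against 289 ± 71.0 CPM in non-foamy ones, a log2 fold change of -1.59 (SE 0.25, edgeR adjusted p = 0.0036). Trp53, the gene of p53 itself, had a log2 fold change of -0.01 (SE 0.36, edgeR adjusted p = 0.99). Atf3, a stress-induced factor, had a mean of 396 ± 30.9 CPM in foamy libraries against 646 ± 42.4 CPM in non-foamy ones, a log2 fold change of -0.71 (SE 0.16, edgeR adjusted p = 0.029). The Atf3 call was lost without any 1 foamy replicate (-0.75 to -0.64), and without non-foamy replicate 2 (-0.70) or 3 (-0.65).

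**Figure D4:**
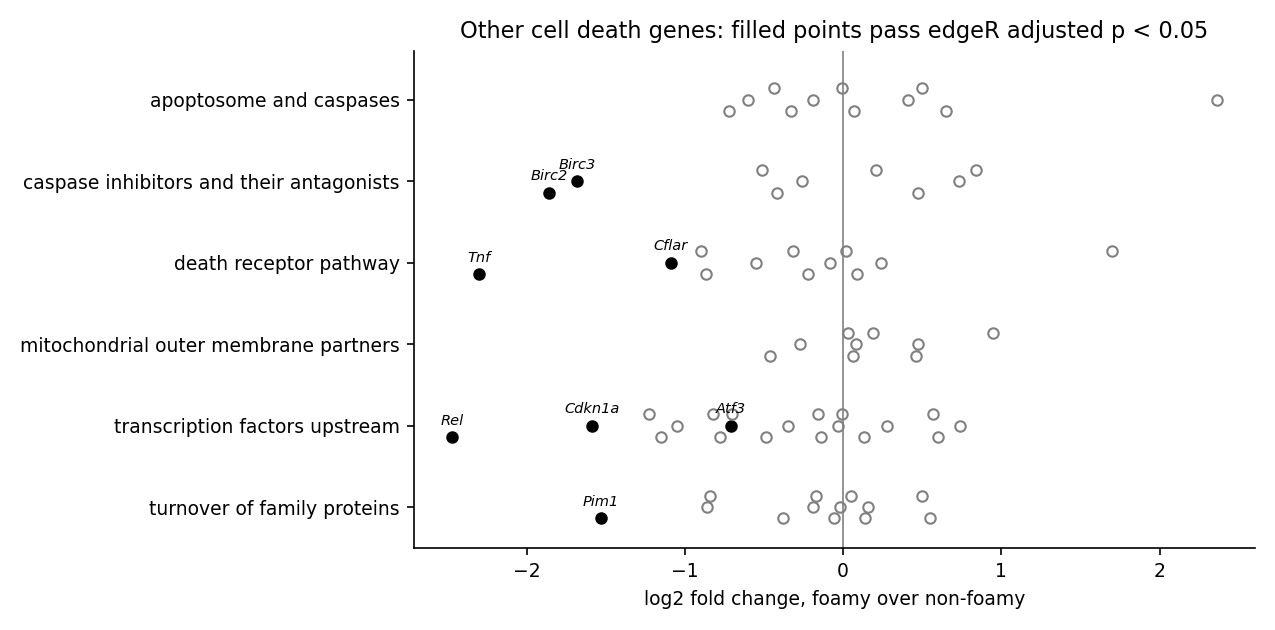
Log2 fold change, foamy over non-foamy, of the 74 tested genes of 6 death pathway lists, 1 point per gene, with filled, named points for those past edgeR's adjusted p of 0.05. All 8 filled points are below 0; the open points farthest to the right are Dffb (2.36, SE 1.32) and Mlkl (1.70, SE 0.54), which did not pass.

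Other measured differences between the populations went with these results. For the counts of calls that follow, 2.50% of all genes tested were called higher and 2.90% lower in foamy libraries. Of 8 tested monocyte markers (9 listed) 7 fell in foamy libraries, and the sum of the list was 142, 192 and 201 CPM in foamy libraries and 748, 877 and 1150 CPM in non-foamy ones, low to high; none of its genes was at 0 throughout a group. Of 18 immediate early and heat shock genes, which respond to tissue digestion among other stimuli, 13 fell, with sums of 2490, 2780 and 3040 CPM in foamy libraries and 5530, 7660 and 7820 CPM in non-foamy ones. Atf3 is in that list too. The dendritic cell list summed to 0.332, 2.37 and 16 CPM in foamy libraries and 33.4, 197 and 255 CPM in non-foamy ones. Most of the non-foamy sums was 1 gene, Cd209a. It stood at 0.189, 14.5 and 0.323 CPM in foamy replicates 1 to 3 and 178, 249 and 32.1 CPM in non-foamy ones. Cd209a was the 1 tested gene of that list and did not pass (edgeR adjusted p = 0.28). Ccr7 and Siglech were at 0 in all foamy and Clec9a in all non-foamy libraries. The lymphocyte list summed to 28.8, 39.4 and 40.5 CPM in foamy libraries and 13.5, 18.7 and 24.2 CPM in non-foamy ones, and 2 of its 3 tested genes rose (Cd4 and Klrb1c). Of 4 tested neutrophil markers 1 fell, S100a9, at 0, 0 and 0.0538 CPM in foamy libraries and 3.14, 16.9 and 1.30 CPM in non-foamy ones. Csf3r, of the same list, was at 25.0, 13.2 and 21.6 CPM in foamy libraries and 6.54, 7.03 and 9.31 CPM in non-foamy ones and did not pass (edgeR adjusted p = 0.063). The lymphocyte, neutrophil, smooth muscle and endothelial lists summed to at most 42.1 CPM in any library, and Cd3e, Cd8b1, Ncr1, Ly6g, Camp and Ngp were at 0 in all foamy libraries. The part of these differences in the lower Pmaip1, Bcl2a1d and Bcl2a1a was not tested.

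The tested genes whose log2 CPM followed the called members most closely over the 6 libraries were Rab20 (r = 0.9957), Bmp2 (0.9955) and Gm29340 (0.9952) for Bcl2a1d. For Pmaip1 they were Rhobtb2 (0.9976), Gm22816 (0.9974) and Trim30b (0.9959). Rab20, a small GTPase of vesicle traffic, was at 23.5, 20.1 and 16.7 CPM in foamy libraries and 39.7, 43.3 and 55.9 CPM in non-foamy libraries. Trim30b was at 0.521, 0.556 and 0.700 CPM in foamy libraries and 11.0, 6.21 and 8.01 CPM in non-foamy ones. In both, non-foamy libraries held the order that the member had. With groups that lie apart such values are mostly set by the group difference: 149 genes had r above 0.95 with Bcl2a1d and 175 with Pmaip1, so they are given as a description, with no p.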

How the data were processed

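RNA was measured by sequencing in 3 foamy and 3 non-foamy libraries. Per the labels' protocols, intima was digested for 70 min after removal of the adventitia, cDNA was made with a SMARTer Ultra Low kit from lysed sorted cells and amplified for 12 cycles, and single reads of 50 bases were made; no molecular identifiers are named, so intervals cover no amplification error. Alignment and counting tools, per the submitters' processing notes, included featureCounts 1.4.5 of Subread and STAR 2.0.4b, on GRCm38. Neither strand setting nor the handling of reads with several matches is given in the sources used here, which leaves overlapping, antisense and near-identical genes uncertain: Bid shares 628 of 3550 exon bases with the opposite-strand Bcl2l13, Bak1 357 of 2407 with Ggnbp1.

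The deposited counts are whole reads per gene and were used for every test. The deposited CPM and RPKM, the authors' values per total counts and per gene length, were used only to check (to 1e-06) that they follow from the counts. Symbols were found for 40254 of 41388 IDs (97.26%), with all members found. Tests used edgeR 4.0.16 in R 4.3.3 (filterByExpr, TMM, robust quasi-likelihood F-test, Benjamini-Hochberg adjustment over all genes tested, threshold 0.05), and fold changes are foamy over non-foamy. The SE was taken as the absolute log2 fold change over the square root of F, and the intervals are normal approximations from it. TMM factors were 0.869 to 0.967 in foamy and 1.03 to 1.18 in non-foamy libraries. CPM and RPKM in the text were recomputed with TMM scaling from the table's lengths. Windows, coding sequences and classes came from GENCODE M21, promoters from RefSeq. The procedure was tested on simulated data.

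The members and gene lists were chosen with earlier results of these data known. Named were all members, other family genes with a count, up to 3 called genes per pathway list by p, or the 1 with the smallest p, and the 3 genes most like each called member. Genes named outside this rule (Trp53, Dffb, Mlkl, single marker genes) were chosen after their values were seen. Alternatives were RLE, upper-quartile and total-count scaling, DESeq2 1.42.0, limma-voom 3.58.1, fitting without a filter, a stricter filter (10 counts in 3 libraries and 5 CPM on average), a block for replicate number, a test against a 1.5-fold change, the Bcl2a1 copies summed, and each library left out.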

Additional observations from a re-analysis of the deposited data

How the results depend on the processing

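Over all genes 611 passed. DESeq2 gave 1173, the test against a 1.5-fold change 276, no filter 888 and total-count scaling 779 (165 higher and 614 lower, against 283 and 328); leaving out 1 library gave 271 to 579. Total-count scaling moved the median of all genes to -0.31, so only changes beyond that shift can be read there. Without a filter the median was -0.66, but over 29120 genes against 11303 in the main fit. It is therefore not a shift of the same genes. Every member had a higher log2 fold change there than in the main fit, such as Bax (0.21 against 0.12) and Pmaip1 (-2.26 against -2.38). Of the members 2 passed; 1 (Pmaip1) passed against a 1.5-fold change and 1 with the Bcl2a1 copies summed, and leaving out 1 library gave 1 to 2. Of the other family genes 3 passed, 1 (Bcl2a1a) against a 1.5-fold change and 1 to 2 without 1 library. Of the pathway genes 8 passed, 5 (Birc3, Rel, Cdkn1a, Pim1 and Tnf) against a 1.5-fold change and 5 to 8 without 1 library.

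Same-numbered foamy and non-foamy libraries showed no clear likeness in their deviations from the group means (r of -0.07, -0.02 and -0.03). The labels do not say whether they share mice, and such low values cannot exclude it. With the replicate block 391 genes passed, 2 of the members, 2 of the other family genes (Bik lost) and 6 of the pathway genes (Cflar and Atf3 lost).

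The members whose log2 fold change turned sign passed under no setting. Bcl2l1 (-0.07) was 0.01 with limma-voom, 0.07 without the filter and between -0.33 and 0.35 with 1 library left out. Bcl2a1b (0.22) was -0.03 with total-count scaling and -0.54 when read from the summed copies. Bax (0.12) was -0.15 with total-count scaling and between -0.04 and 0.26 with 1 library left out, and Bak1 (0.13) was -0.12 and between -0.03 and 0.26. The cause of these changes was not tested. Over the members and alternatives 146 values kept direction and side of the threshold, 10 turned sign and 4 lost the call, all of Bcl2a1d (against a 1.5-fold change, with the copies summed, and without foamy replicate 2 or 3). The members had 124 to 6968 counts a library, and the biological coefficient of variation shared by all genes was 0.505.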
